A study of Mus musculus with 2 samples.

Results

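CpG cytosines that were unmethylated in wt and partly methylated in βerko mouse embryonic fibroblasts (MEFs) are described here. Members were the positions below 20 % methylation in wt and from 20 to 80 %, both limits included, in βerko MEFs, so that they were chosen by the measured percent methylation of both libraries and their gain is a description and not a test. There were 17876 members among 826937 cytosines covered in both libraries, or 2.16 %. Of the 415582 cytosines below 20 % in wt, 4.3 % were members, 395651 (95.2 %) stayed below 20 % and 2055 (0.494 %) rose above 80 %.

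The data came from reduced representation bisulfite sequencing (RRBS), in which MspI cuts genomic DNA at CCGG and short fragments are kept. Bisulfite then converts unmethylated but not methylated cytosines. Wt MEFs were of genotype wildtype and βerko MEFs of genotype ESR2 -/-, derived from knock-out mice for oestrogen receptor β (ERβ), and both were labelled strain C57BL/6 and grown in the same medium without further treatment. There was 1 library per cell type, each from DNA of 3 pooled batches, so no test between genotypes was possible and all differences are between 2 libraries. Age, sex and the number of embryos behind each cell type were not given in the sources used here. A value between 20 and 80 % in such a pool cannot be told apart between methylation of all alleles in some cells, of 1 allele, or in some of the batches, and bisulfite does not separate 5-methylcytosine from 5-hydroxymethylcytosine. Read depth was not used here at the members, so intervals below (95 % Wilson) cover the counting of positions only.

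In mammals, DNA methyltransferases place methyl groups on CpGs, and passive loss or oxidation by TET enzymes followed by base excision through thymine DNA glycosylase removes them. CpG islands, stretches dense in CpGs at many gene starts, usually stay free of methylation. Islands of developmental regulators such as the Hox genes, which set position along the body axis, are held silent by Polycomb complexes in many tissues and are known to gain methylation in culture, ageing and cancer. ERβ is a nuclear receptor that binds oestrogen response elements and was studied here for its part in DNA methylation.

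The labelled cell type was compared with marker promoters. Promoters of the fibroblast genes Col1a1 and Twist1 were at 0 % in both libraries and that of Fn1 at 0.6 % in wt and 0 % in βerko MEFs, whereas those of Col1a2 (93.6 and 48.3 %) and Vim (64.2 and 58.5 %) were methylated at their covered positions. Promoters of the pluripotency gene Pou5f1 (83.1 and 65.7 %) and of the germ cell genes Ddx4 (96.9 and 91.8 %) and Sycp3 (94.3 and 88.4 %) were methylated in both. Zfp42 stood at 92.4 and 63 %, and Dazl, with the most covered promoter positions of these markers, at 52.3 and 35.7 %. The deleted gene, Esr2, held 22 covered positions, of which 8 were below 20 % in wt and 0 were members, and methylation does not show whether the allele is deleted.

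The longest runs of neighbouring members are shown first as sequence, because they hold the most members side by side. A run was at least 5 members, each within 100 bp of the next. Of the 12 runs with the most members, the first 6 that could be printed and overlap no annotated untranslated region (UTR) follow, at most 300 bases each, as the plus strand of NCBIM37 (mm9). Capitals mark members, C for a cytosine on the plus strand and G for one on the minus strand. The stretches are Rims1 at chr1:22540513-22540812 (coding exon, 19 of the run's 26 members), Zfp503 at chr14:22804560-22804856 (coding exon, 22 members), a stretch between genes nearest to Hoxa13 at chr6:52203526-52203825 (18 of 22 members), Hoxa11 at chr6:52194984-52195280 (coding exon and promoter of Hoxa11as, 20 members), an intergenic stretch at chr12:23094495-23094739 (19 members) and the Unc5d promoter at chr8:30330032-30330293 (19 members).
Rims1: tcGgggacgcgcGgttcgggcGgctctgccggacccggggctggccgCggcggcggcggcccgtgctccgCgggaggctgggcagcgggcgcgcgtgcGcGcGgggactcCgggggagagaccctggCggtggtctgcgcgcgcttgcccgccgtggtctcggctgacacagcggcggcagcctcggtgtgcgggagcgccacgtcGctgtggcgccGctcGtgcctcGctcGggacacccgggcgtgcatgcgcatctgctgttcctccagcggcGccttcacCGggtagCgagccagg
Zfp503: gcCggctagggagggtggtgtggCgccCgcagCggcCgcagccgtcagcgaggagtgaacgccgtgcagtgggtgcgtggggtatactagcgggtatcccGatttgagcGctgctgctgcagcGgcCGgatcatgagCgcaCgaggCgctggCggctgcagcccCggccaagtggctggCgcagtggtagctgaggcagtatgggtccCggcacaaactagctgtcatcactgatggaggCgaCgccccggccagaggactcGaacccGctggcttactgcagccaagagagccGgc
Intergenic, nearest to Hoxa13: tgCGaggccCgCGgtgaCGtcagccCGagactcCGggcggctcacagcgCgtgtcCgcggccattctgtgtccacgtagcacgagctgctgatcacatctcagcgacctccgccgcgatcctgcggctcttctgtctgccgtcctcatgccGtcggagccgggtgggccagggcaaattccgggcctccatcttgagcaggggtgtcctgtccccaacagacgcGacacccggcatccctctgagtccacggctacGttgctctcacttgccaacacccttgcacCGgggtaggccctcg
Hoxa11: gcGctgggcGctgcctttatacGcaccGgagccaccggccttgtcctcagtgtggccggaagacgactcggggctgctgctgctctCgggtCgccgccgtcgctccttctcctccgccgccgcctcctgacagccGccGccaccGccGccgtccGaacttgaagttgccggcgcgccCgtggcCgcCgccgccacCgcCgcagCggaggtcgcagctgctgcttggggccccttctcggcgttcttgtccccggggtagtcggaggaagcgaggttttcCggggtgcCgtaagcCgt
Intergenic, chromosome 12: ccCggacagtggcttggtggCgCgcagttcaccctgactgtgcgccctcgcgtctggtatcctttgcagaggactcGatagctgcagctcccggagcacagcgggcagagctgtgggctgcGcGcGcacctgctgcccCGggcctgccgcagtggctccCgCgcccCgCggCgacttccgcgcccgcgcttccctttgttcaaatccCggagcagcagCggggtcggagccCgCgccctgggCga
Unc5d: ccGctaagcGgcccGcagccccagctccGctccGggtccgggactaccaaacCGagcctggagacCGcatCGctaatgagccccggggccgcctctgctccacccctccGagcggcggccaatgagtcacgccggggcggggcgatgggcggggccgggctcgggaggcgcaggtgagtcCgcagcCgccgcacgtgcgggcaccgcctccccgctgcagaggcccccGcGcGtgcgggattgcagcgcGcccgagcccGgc

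Members stood at both strands of a CpG (CG) and at lone cytosines, and CpGs in lower case were not covered or were no members. The Rims1 stretch holds 50 CpGs and 5 CCGG sites, the Zfp503 stretch 28 and 6, that nearest to Hoxa13 30 and 5, Hoxa11 41 and 6, the chromosome 12 stretch 29 and 4, and Unc5d 37 and 6. The chromosome 12 stretch matched 20 places in the genome at 90 % identity or more, so reads of its copies may not be placed apart; the other 5 matched their own place only.

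Gains were mostly moderate. Over all members, wt methylation had a median of 8.53 % (middle 50 % of positions, 2.33 to 14.3 %) and βerko methylation a median of 35 % (25.4 to 50 %). Subtracting wt from βerko values gave a median gain of 27.3 percentage points (18.5 to 42.5, range 0.43 to 80). It was at least 20 points at 12823 members (71.7 %), at least 50 points at 3094 (17.3 %) and under 10 points at 1363 (7.62 %). Among all covered positions, by comparison, 6.81 % were at least 20 points higher and 10.4 % at least 20 points lower in βerko MEFs, and among those below 20 % in wt 3.58 % were at least 20 points higher.

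**Figure D1:**
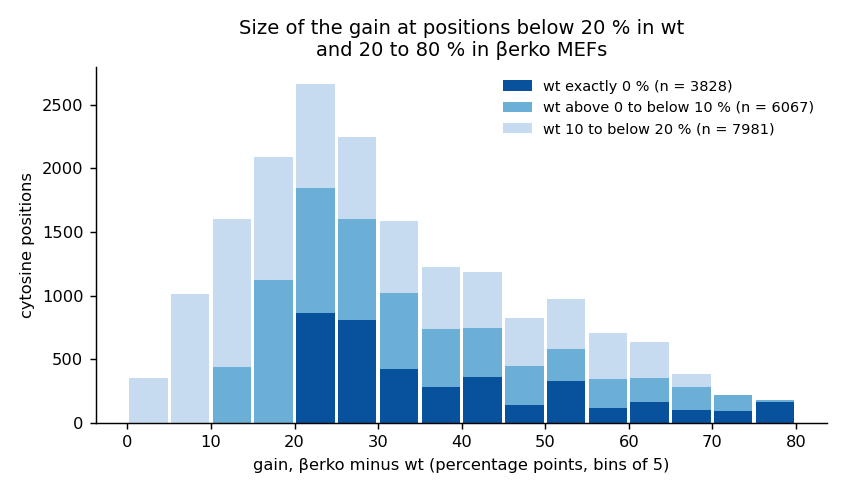
Members by size of the gain (x axis, percentage points in bins of 5; y axis, number of positions), coloured by their wt value. The 3828 members at exactly 0 % in wt start at 20 points, and the gains under 10 points come from members at 10 to below 20 % in wt.

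Many members were close to a limit of the rule. In βerko MEFs 6732 members (37.7 %) lay from 20 to 30 % and 4898 (27.4 %) at 50 % or above. Just inside the lower βerko limit, from 20 to 21 %, there were 1289 positions, 786 of them at exactly 20 %, and just outside, from 19 to 20 %, 569. Just inside the upper limit, from 79 to 80 %, there were 184, and just above it, up to 81 %, 73. On the wt side, 506 members lay from 19 to 20 %.

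The starting level differed from that of positions that stayed unmethylated. Exactly 0 % was read in wt at 21.4 % of members and at 71.4 % of the positions that stayed below 20 %, and 44.6 % of members against 5.87 % of those positions lay from 10 to 20 %. As shares, 1.33 % of positions at exactly 0 % in wt (CI 1.29 to 1.38 %) and 24.7 % of those from 10 to 20 % (24.2 to 25.1 %) were members. Part of this contrast is fixed by the rule. A position at 0 % in wt must rise by at least 20 points to be a member, and one from 10 to 20 % by 10 points or less. The opposite class, 20 to 80 % in wt and below 20 % in βerko MEFs, held 39959 positions, 2.24 times as many, and was 9.05 % of the positions below 20 % in βerko MEFs. Its positions fell by a median of 29.8 points.

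The second strand of the same CpG was covered for 3034 members, on 2374 CpGs, and at 660 of these CpGs (27.8 %) both strands were members. These values are a description, since the rule also chose the second strand wherever it was a member and both strands of such a CpG enter the shares. Over the 3034 members the second strand averaged 16.6 % in wt and 34.9 % in βerko MEFs, a difference of 18.3 points. It was higher in βerko MEFs for 77.6 % of these members, at 20 % or more in βerko MEFs for 68.8 % and a member itself for 43.5 %. At positions that stayed below 20 %, the other strand was higher in 16.1 %, at 20 % or more in 2.51 % and a member in 1.02 %. For members in runs 56.4 % of the second strands were members too, with a mean difference of 21.8 points, and for members outside runs 40 % and 17.4 points. For 28.1 % of the 3034 members the second strand was already at 20 % or more in wt.

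The mean difference of covered CpGs around members fell off within 100 bp, whereas members stayed frequent farther away. Covered CpGs 1 to 10 bp from a member were on average 6.65 points higher in βerko MEFs, those 26 to 50 bp away 1.55 points higher and those 51 to 100 bp away differed by a mean of −0.0459 points, compared with −1.2 points at that distance from positions that stayed below 20 %. Around positions of the mirror class the mean difference went from −20.6 points at 1 to 10 bp to −16.7 points at 51 to 100 bp, and around those that rose above 80 % from 25.2 to 7.98 points. Of neighbours below 20 % in wt, 36.6 % were members at 1 to 10 bp, 17.9 % at 51 to 100 bp, 11.9 % at 500 to 1000 bp and 15.9 % at 1000 to 5000 bp, compared with 1.1, 1.25, 1.93 and 4.55 % around positions that stayed below 20 %. These shares are descriptions, since neighbouring cytosines can come from the same reads.

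**Figure D2:**
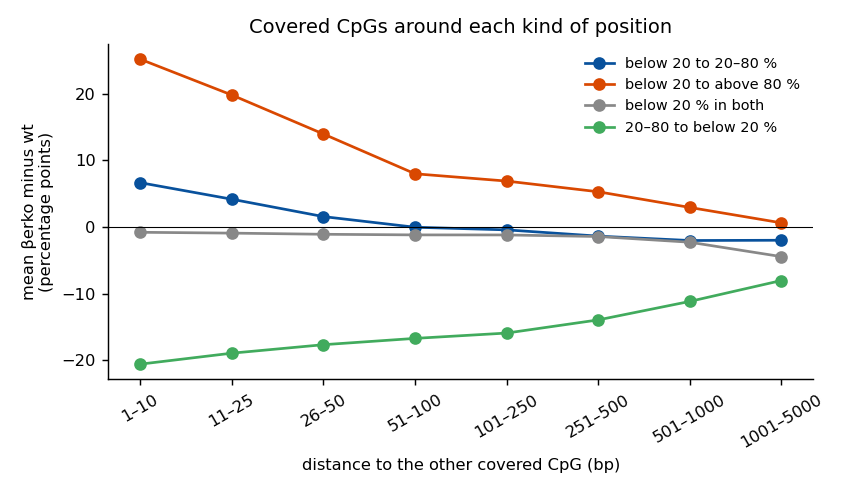
Mean βerko minus wt methylation (y axis, percentage points) of covered CpGs by their distance (x axis, bp) from members (blue), from positions that rose above 80 % (orange), that stayed below 20 % (grey) and of the mirror class (green). Blue falls from 6.65 points at 1 to 10 bp to −0.0459 points at 51 to 100 bp, while green is still at −16.7 points there.

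Members were sparse in gene starts and frequent in CpG-poor DNA. A promoter, here the 500 bp before and the 100 bp after any transcript start, held 21.6 % of members (CI 21 to 22.2 %), 51.8 % of the positions that stayed below 20 % and 29.7 % of all covered positions. Between genes lay 32 % of members and 7.3 % of the positions that stayed. Put the other way, 1.85 % of the unmethylated promoter positions were members (median gain 24.2 points), 4.62 % of those in other exons (25 points), 5.02 % in introns (29 points) and 16.1 % between genes (31.2 points). The share fell with CpG density, from 36.4 % where the 100 bases on each side held 1 to 5 CpGs, itself included, through 12.3 % at 6 to 10 and 2.9 % at 16 to 20, to 1.29 % at 31 to 60. CpG-dense DNA is mostly unmethylated in both libraries, so density, place and wt level are not separate observations.

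Sequence words were counted around members, all covered positions and positions that stayed below 20 %. The palindromic oestrogen response element, GGTCA and its reverse complement 3 bases apart, searched on both strands within 100 bases of the CpG, was present at 6 members (0.0336 %, CI 0.0154 to 0.0732 %), at 0.0206 % of all covered positions and at 0.0159 % of those that stayed. Its arm GGTCA, which the palindrome also contains, was present at 29.7, 28.4 and 23.5 % in the same order, the AP2 word GCCNNNGGC at 19.4, 22.7 and 32.4 % (31.9 % of members in runs) and the E-box word CAGCTG at 13.7, 12 and 10.3 %. The MspI word CCGG contained 44.5 % of members, 39.1 % of all covered positions and 26 % of the positions that stayed below 20 %, but 19.9 % of the members in runs. A word is a match of letters and not a bound site.

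Many members stood alone, some of them without any other covered CpG nearby. No other CpG within 100 bp was covered for 2415 members. Of the 15461 members with such a covered CpG, 7713 (49.9 %) had no member among those CpGs. With gaps of at most 100 bp, 9587 members (53.6 %) had no other member beside them, 1773 pairs, 579 groups of 3 and 250 groups of 4 were found, and 271 runs of at least 5 held 2006 members (11.2 %, CI 10.8 to 11.7 %). Runs had a median of 6 members over 95 bp, 41 runs had 10 or more members, and the longest had 43. The mean gain of a run had a median of 27.8 points and went from 10.6 to 70 points, and 233 runs held members of both strands. Within the runs' spans 4194 positions were covered, of which 2006 were members, 1277 stayed below 20 %, 22 rose above 80 % and 889 were at 20 % or more in wt. In 38 runs all covered positions were members. Methylation within 1 kb outside a run differed little, with a median difference of 1.4 points over 264 runs, although it was at least 20 points higher in βerko MEFs at 26 of them.

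Members in runs differed in place from members outside runs. A promoter was overlapped by 121 runs (44.6 %, CI 38.8 to 50.6 %), and a further 79 lay in exons, 27 in introns and 44 between genes. The centres of 178 runs were within 1 kb of an annotated transcript start of a protein-coding gene. Of the members in runs 39.8 % were in promoters, compared with 19.3 % of the members outside runs. Of all positions below 20 % in wt, 50.2 % were in promoters. CpG-island-like sequence, with a GC content of at least 50 % and a CpG ratio of at least 0.6, surrounded 93.3 % of the members in runs and 42.3 % of the others. Such sequence surrounded 89.8 % of the positions that stayed below 20 % and 87.6 % of all positions below 20 % in wt. Members in runs had a median of 22 CpGs within 100 bases, as did positions that stayed below 20 %, and other members 9. Runs need members close together, so part of this contrast in density is fixed by their definition. Of the runs, 259 had their own place as the only match in the genome and 12, with 92 members, had 2 to 229 matches.

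Read depth was known only at positions that the authors called differentially methylated (below 20 % in 1 library and above 80 % in the other), which are not members. Within 100 bp of runs there were 34 such hypermethylated positions, with a median of 9.5 reads (4 to 98) in wt and 23.5 reads (4 to 83) in βerko MEFs. They lay beside 20 of the 271 runs. At 16 hypomethylated positions called within the same distance the median depth was 10 in wt and 12 in βerko MEFs. A wt value of 0 % there can thus rest on few reads, and the part of depth in the runs was not tested.

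The 2 largest runs overlapped promoters. Pex5l encodes a PEX5-related protein that regulates HCN channels in neurons, and its run at chr3:33041800-33042260 spans the first exon and the promoter, with 43 members of 59 covered positions. Wt values of the members went from 0 % over a median of 5.56 % to 17.6 %, and βerko values from 21.4 % over 40.5 to 73.3 %. Just downstream of the start of Elavl4, which encodes the neuronal RNA-binding protein HuD, lay 28 members among 40 covered positions. They had wt values up to 8.33 % (median 0 %) and βerko values from 20.6 to 70.8 % (median 37.9 %). That wt and βerko values do not overlap is fixed by the rule. In Rims1, for a scaffold of the presynaptic release site, the run of 26 members was centred 62833 bp downstream of the nearest annotated transcript start. That transcript start is not the start of the gene's annotated span, which lies farther away. The members went from 0 to 18.2 % in wt (median 5.38 %) and from 20 to 56.2 % in βerko MEFs (median 34.3 %). Of the 65 covered positions of the run's span, 18 stayed below 20 %. Other positions of the span were already at 20 % or more in wt, up to 100 %. All covered positions of the span averaged 17.4 % in wt and 31.8 % in βerko MEFs, and those within 1 kb outside it 26.9 and 22.2 %.

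Other runs among the 12 largest lay at or in the following genes. Unc5d, of the netrin receptor family, had 19 members upstream of its start with medians of 3.7 % in wt and 35.3 % in βerko MEFs. Pclo, for the presynaptic protein Piccolo, had 16 members with medians of 3.05 and 25.6 %, and 32 of 50 covered positions of its span stayed below 20 %. Gabrg3, a subunit gene of the GABA-A receptor, had 22 members with medians of 3.35 and 37 %. The neighbouring subunit gene Gabra5 had a run of 11 members near its start, with mean values of 5.39 % in wt and 36.5 % in βerko MEFs. A run of 18 members between genes, 12071 bp upstream of BC034090 on chromosome 1, had medians of 0 and 34.3 %.

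**Figure D3:**
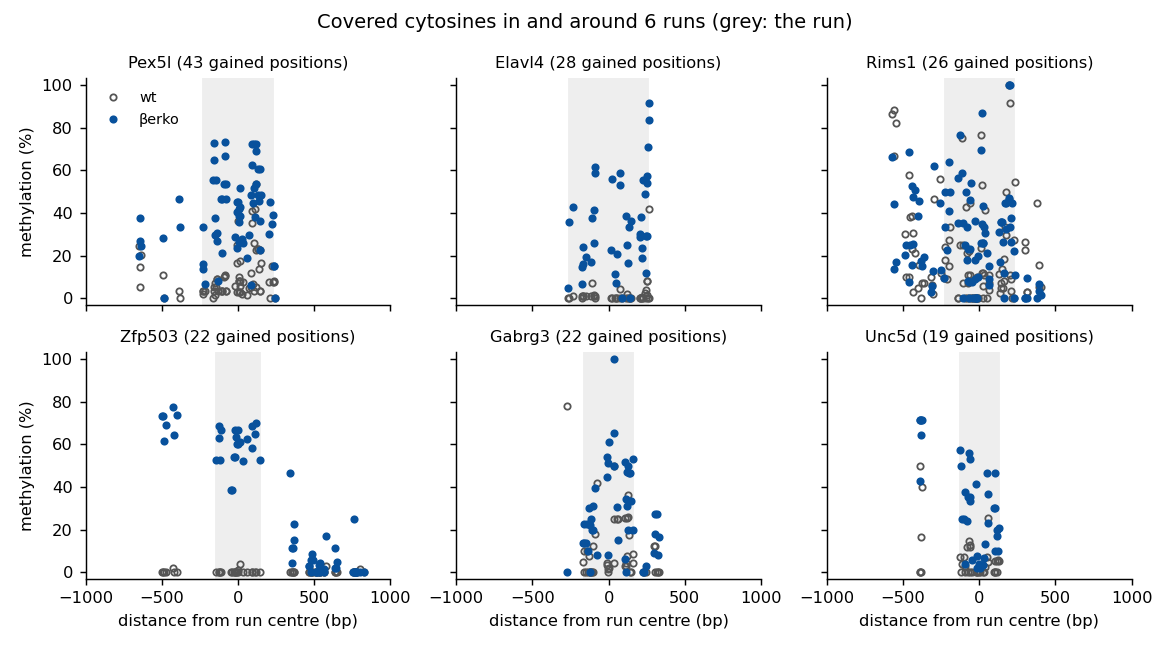
Methylation (y axis, %) of each covered cytosine in wt (open grey) and βerko MEFs (filled blue) by distance from the centre of 6 of the largest runs (x axis, bp), with the run shaded. At Zfp503 all 22 positions of the run sit between 38.5 and 70 % in βerko MEFs. At Rims1 members alternate with positions that stayed low and with others already at 20 % or more in wt.

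The run of largest mean gain was in Zfp503. The gene encodes a zinc finger repressor of developing brain and limb, and 3 runs lay within 4061 bp at its 3′ side, 2 of them in its exon. In the run of 22 members all covered positions were members, with wt values from 0 to 3.7 % (median 0 %) and βerko values from 38.5 to 70 % (median 60.4 %). A second exonic run of 7 members went from a mean of 0.324 % to 70.3 %, the largest mean gain of all runs at 70 points. The third, of 14 members, lay beyond the annotated gene, centred 6196 bp downstream of the nearest transcript start, and went from 2.97 to 45.5 %. From the first to the last of these positions 66 cytosines were covered, all below 20 % in wt, of which 52 were members, 10 rose above 80 % and 4 stayed below 20 %. This was 78.8 % of the unmethylated positions, against 4.3 % over all.

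The second largest mean gain, 58.9 points, was that of 5 members in a 24-bp stretch 41219 bp from Tbx3, a T-box regulator of limb and heart. At the other end, 7 members on chromosome 10, in a sequence with 2 matches in the genome, gained a mean of 10.6 points, 7 members at the Igf2r promoter and within Airn 11.1 points, and 5 members in Rpp25, for a subunit of RNase P, 13.4 points. These 3 runs began at wt means of 11.3 to 15.1 %.

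The posterior Hoxa genes held a series of runs. From Hoxa9 to Hoxa13 on chromosome 6, over 34259 bp, there were 10 runs with 98 members: 4 nearest to the start of Hoxa9 and 2 each nearest to those of Hoxa10, Hoxa11 and Hoxa13. Of 289 covered positions in this block 287 were below 20 % in wt, and 150 of these (52.3 %) were members, 128 stayed below 20 % and 9 rose above 80 %. Wt methylation averaged 0.461 %, with 252 positions at exactly 0 %, and βerko methylation 26.7 %. The block was chosen after the runs were seen. Members went from 0 to 12.5 % in wt (median 0 %) and from 20 to 80 % in βerko MEFs (median 36 %), and their mean gain was 38.1 points.

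Within the block the runs were alike in wt and uneven in βerko MEFs. Run means lay from 0 to 0.714 % in wt and from 25.3 %, at the Hoxa10 promoter, to 49.2 %, in an exon of Hoxa9, in βerko MEFs. At Hoxa11, whose product patterns limb and urogenital tract, 20 members had a wt maximum of 12.5 % and βerko values from 20.8 to 80 % (median 38.9 %), and the run also overlaps the promoter of its antisense RNA Hoxa11as. Hoxa9 as a whole had 52 members of 86 unmethylated positions, Hoxa10 30 of 64 and Hoxa11 33 of 70. The 9 hypermethylated positions called by the authors in this block had 5 to 10 reads in wt (median 6) and 23 to 54 reads in βerko MEFs (median 30), so wt values near 0 % at these positions rest on few reads. These positions are not members. Some members of the block had wt values such as 0.57 and 0.79 %, which need far more than 10 reads. The part of depth in the block was not tested.

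**Figure D4:**
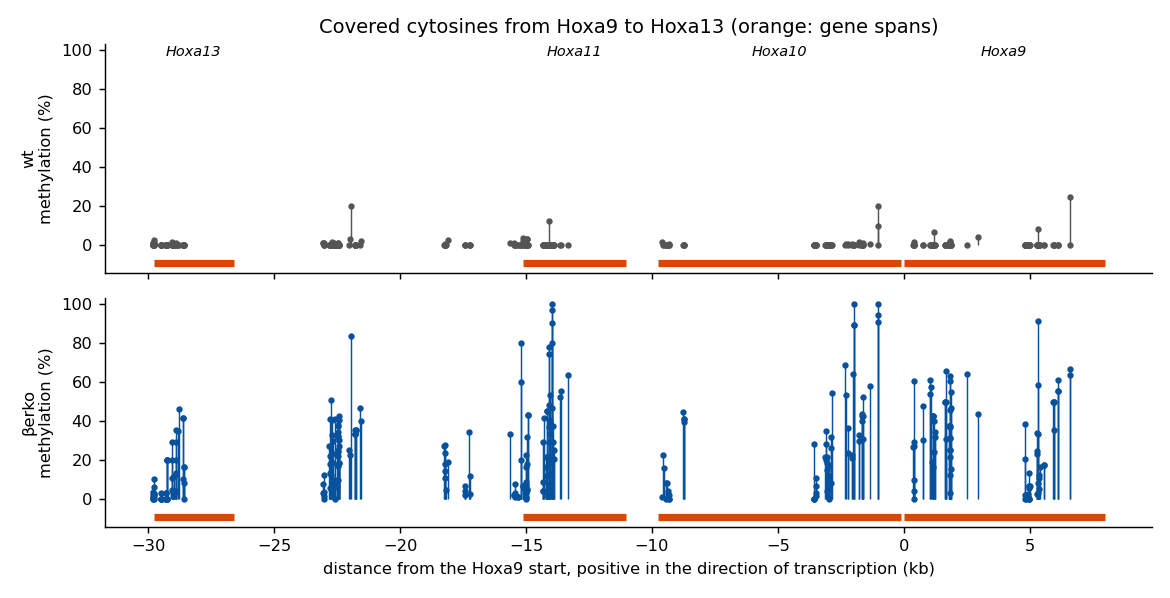
Methylation (y axis, %) of each covered cytosine from Hoxa9 to Hoxa13 in wt (top) and βerko MEFs (bottom) by distance from the Hoxa9 start (x axis, kb, positive in the direction of transcription); orange bars are gene spans. In wt 252 of the 289 positions of the block are at 0 %, and in βerko MEFs members up to 80 % alternate with positions that stayed low.

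All 4 Hox clusters held members, at different levels. Counting each position once, members were 131 of 383 unmethylated positions in Hoxa genes (34.2 %, CI 29.6 to 39.1 %), 55 of 219 in Hoxc (25.1 %, 19.8 to 31.3 %), 51 of 255 in Hoxb (20 %, 15.6 to 25.3 %) and 42 of 288 in Hoxd (14.6 %, 11 to 19.13 %). Hoxa members started from a wt median of 0 %, Hoxb members from 7.69 %, Hoxc members from 10.5 % and Hoxd members from 11.4 %, and Hoxd members reached the highest βerko median, 54.6 %. Runs held 70 of the Hoxa, 26 of the Hoxd, 6 of the Hoxc and 0 of the Hoxb members. In the mirror class the order was another, with 29 positions in Hoxa, 101 in Hoxb, 76 in Hoxc and 80 in Hoxd. Over all covered positions, mean methylation was lower in βerko than in wt MEFs in each cluster. It was 30.6 % in wt and 27.9 % in βerko MEFs in Hoxa, and 26 and 22.2 % in Hoxb. In Hoxc it was 28 and 25.6 %, and in Hoxd 37 and 25.6 %. Hoxd3 held 21 members, with 2 runs, and its run of 9 members at the promoter went from 8.92 to 47.5 %.

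The gene lists differed in their share of members. Of the unmethylated positions from 500 bp upstream to the end of the listed genes, 24.4 % were members in Hox genes (28 of 39 genes had any), 12 % in other homeobox genes (75 of 100), 11.6 % in Pax, T-box, Sox, Fox and Gata genes (48 of 65 covered), 11 % in imprinted genes (20 of 60), 9.12 % in germline and pluripotency genes (12 of 63) and 7.97 % in protocadherin genes (11 of 25). Nearer to the 4.3 % of all unmethylated positions were bHLH genes with 5.91 % (26 of 47), nuclear receptors with 4.54 % (25 of 47) and Wnt, TGF-beta, BMP, FGF and hedgehog genes with 4.05 % (52 of 108). Below it were tumour suppressor and cell cycle inhibitor genes with 2.67 % (15 of 41), fibroblast matrix and mesenchymal genes with 1.3 % (11 of 60) and DNA methylation and demethylation enzymes with 0.913 % (5 of 30). Nearer and below refer to the shares of positions only. Over all genes with a covered position, 4998 of 20794 had any member. The counts of genes were not adjusted for the number of covered positions per gene. The mirror class, 2.24 times the members over all positions, outnumbered the members in each of these lists. It held 1363 against 462 positions in other homeobox genes and 1030 against 273 in Pax, T-box, Sox, Fox and Gata genes. Over all covered positions, the former averaged 35.2 % methylation in wt against 24.8 % in βerko MEFs, and the latter 39.9 against 30.4 %. In Hox genes the mirror class held 286 and the members 279 positions. All covered positions of the Hox genes averaged 30.9 % in wt against 25.5 % in βerko MEFs. Fibroblast marker genes had 0 of 132 (upper limit 2.83 %) and pluripotent and germ cell markers 0 of 7.

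**Figure D5:**
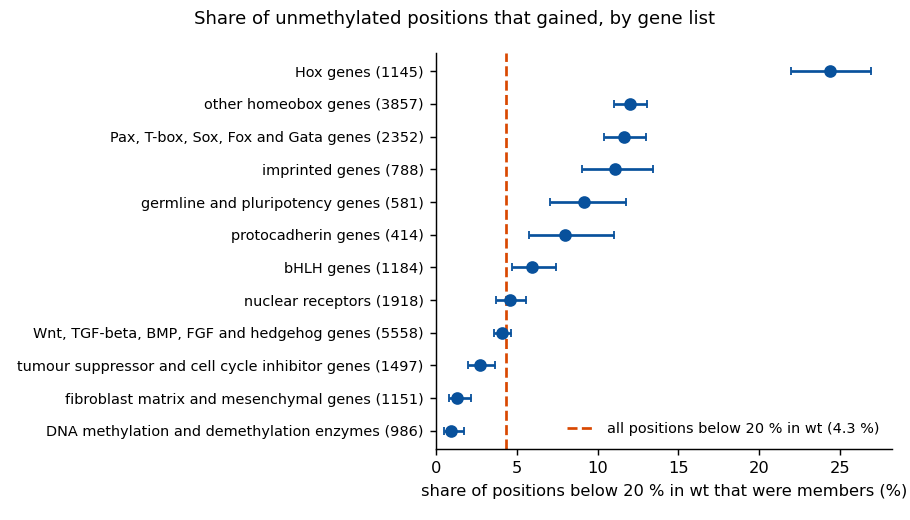
Share of positions below 20 % in wt that were members (x axis, %), by gene list (y axis, with the number of such positions); bars are 95 % Wilson intervals over positions, and the dashed line is the 4.3 % of all positions. Hox genes stand at 24.4 %, and fibroblast matrix genes and methylation enzymes at 1.3 and 0.913 %.

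Among other transcription factors, Uncx, a homeobox gene of the developing somites, had 45 members in its annotated span, of which 3 runs held 20. That span is long, with runs 11390 to 49941 bp from the nearest coding start, so the count is not particular to the gene. Tbx4, a hindlimb regulator, had 19 of 35, with means over all 76 covered positions of 34.6 % in wt and 79.3 % in βerko MEFs, and its promoter run of 8 members went from 6.46 to 52.1 %. Pou4f1 and Pax2 had 20 members each. Losses stood beside the gains in some of these, with 24 positions of the mirror class in Uncx, 20 in Pax2 and 19 in Pou4f1, and 0 in Tbx4.

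Members in imprinted genes, in which 1 parental allele is methylated, had small gains. Grb10, for an adaptor that restrains growth signalling, had 22 members of 42 unmethylated positions, with member means of 11.5 and 34.2 %, and 27 positions of the mirror class in the same gene. At Igf2r and the overlapping Airn, its antisense RNA, 12 members had means of 11.3 and 26.5 %. All 7 unmethylated positions of Plagl1, a zinc finger gene, were members, from a mean of 14.5 to 27.7 %. The list's median gain of 18.1 points was below the 27.3 points of all members, and its members began at a wt median of 10 %. The mirror class held 284 positions of the list against 87 members. Over all covered positions the list averaged 47.7 % in wt and 39.1 % in βerko MEFs.

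By gene, 4998 of 20794 genes with a covered position had at least 1 member, 2538 of them exactly 1, and 206 had 10 or more. The highest counts were 156 in Gm20388, a gene model that spans many other genes, 52 in Hoxa9, 49 in Pex5l, 45 in Uncx, 44 in Fgfr2, 41 in Zfp503, 37 each in Hoxa11as and Rims1, 36 in RP23-329P9.11, which overlaps Hoxa9, and 35 in Dscaml1, for an adhesion molecule of neurons. Shares tell these apart. Members were 83.1 % of the unmethylated positions of Pex5l, 60.5 % in Hoxa9 and 55.6 % in Dscaml1, but 5.2 % in Gm20388 and 4.86 % in Fgfr2, whose annotated spans are long.

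Along the genome, autosomes had from 2.99 % (chromosome 16) to 5.36 % (chromosome 7) of their unmethylated positions as members, chromosome X 5.54 % (CI 5.06 to 6.06 %) with 3 runs, and chromosome Y 12 of 29 positions. Chromosome 6 held the most runs, 28. In 456 windows of 5 Mb with at least 200 positions below 20 % in wt the median share was 3.66 %. The highest was 24.3 % (57 of 235) at 10 to 15 Mb of chromosome 11, with 6 runs at the starts of Vwc2, for a BMP antagonist, Ikzf1, for the lymphoid factor Ikaros, and Grb10, whose run means went from 7.84 to 13.6 % in wt and from 28.7 to 41 % in βerko MEFs. Next came 19.5 % (61 of 313) at 60 to 65 Mb of chromosome 7, with the runs of Gabrg3 and Gabra5, 17.7 % at 20 to 25 Mb of chromosome 12, 16.9 % at 25 to 30 Mb of chromosome 9, with 0 runs, and 16.7 % at 25 to 30 Mb of chromosome 16, with 3 runs nearest to Fgf12. Both runs of the chromosome 12 window matched 20 places in the genome.

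A series of 6 runs lay far from any protein-coding start, within 4099 bp of chromosome 17 and at least 360706 bp from Pgk2, the nearest. They held 40 members, with run means from 3.07 to 11.1 % in wt and from 23.3 to 43 % in βerko MEFs, and 54 of the 178 unmethylated positions between the first and the last were members. The run with the most matches had 4 in the genome. No repeat annotation was used here, so whether these percentages average over repeated copies that the assembly does not hold was not tested.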

How the data were processed

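RRBS libraries of wt and βerko MEFs, 1 each, were mapped by the authors to mm9 with the Genomatix mining station, whose version is not given in the sources used here. The submitters' processing notes name CASAVA 1.4. The authors deposited percent methylation values without depth for the cytosines that both libraries covered, and read counts at differentially methylated positions, which were used only for depth beside runs. No other normalisation was stated. All positions were CpG cytosines of NCBIM37, and GENCODE M1 gave genes.

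Members, and runs of at least 5 with gaps of at most 100 bp, were found in Python 3.11.15 with NumPy and pandas, and the procedure was tested on simulated data. Genome matches of runs with 50 bp on each side, at 90 % identity over 80 % of the length, came from BLAST+ 2.17.0. With 1 library per group no test was run. Named are the 12 runs with the most members, the 3 with the largest and the 3 with the smallest mean gain, the 10 genes with the most members, up to 4 genes per list with at least 3 members, the 5 windows with the largest share, and Esr2; other runs and blocks were named after their values were seen. Members, lists and rules were chosen with earlier results of these data known. Alternatives changed the limits, strands, chromosomes, runs and promoters. Deposited annotations of single libraries were not used, nor were expression data. Some items that the rule names are not reported here.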

Additional observations from a re-analysis of the deposited data

How the results depend on the processing

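Of 49 recomputed values, 18 stayed within the interval of the value above or, for counts, within 1.5 times, and 31 moved. Changed limits move some of these values by construction, and what moved the others was not tested. With wt below 10 %, there were 9895 members, 2.58 % of the unmethylated positions, with a median gain of 29.6 points, 23.8 % in promoters and 115 runs that held 9.01 %. With βerko values from 30 to 70 % there were 9843 (2.37 %), with a median gain of 35.3 points, 18.5 % in promoters and 82 runs that held 6.11 %. A gain of at least 20 points left 3.09 %, with a median gain of 34.6 points, 20.3 % in promoters, 139 runs that held 8.31 % and 74.3 % of second strands at 20 % or more. With both strands merged 4.37 % were members and runs held 8.6 %. Without chromosome X no value moved beyond its interval. Runs of at least 3 members numbered 1100, held 26.5 % and overlapped a promoter in 33.3 %, and runs of at least 8 numbered 72, held 4.87 % and overlapped one in 52.8 %. Gaps of at most 50 bp gave 8.08 % and of at most 200 bp 17 % of members in runs. With promoters taken as 1000 bp before to 500 bp after a start, 38.8 % of members and 63.5 % of runs were in promoters, and with 1 member per group within 500 bp 16.3 % were. Leaving out the runs with 2 or more genome matches, chosen after seeing the data, left 259 runs with 45.2 % at promoters.

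No paired analysis was possible because there was 1 library per cell type. Depth at members is unknown, PCR copies could not be told apart, and the thresholds admit members with a gain under 1 point, so the count of members sets no bound on how many positions changed.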

Other observations

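Nuclear receptor genes, the family of the deleted receptor, were near the background in their share of members. Esrrg, for an orphan receptor related to the oestrogen receptors, had 16 members of 52 unmethylated positions, in which 2 runs lay, with member means of 3.13 % in wt and 30.5 % in βerko MEFs, and 14 positions of the mirror class. Esrrb had 8 of 39, with means of 8.32 and 38.4 %, and Pgr, for the progesterone receptor, 7 of 30, with means of 12.3 and 29 %. Nr2f2, for COUP-TFII, had 183 covered positions, all below 20 % in wt, of which 9 were members at exactly 0 % in wt and at 31.2 to 43.8 % in βerko MEFs.

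In the germline and pluripotency list, Lin28b, for a repressor of let-7 maturation, had 12 members of 64 unmethylated positions (means 4.41 and 31.3 %), and Tex14, for a protein of germ cell bridges, 9 of 36 (1.82 and 30 %), in a run whose sequence matched 2 places in the genome. Among signalling genes, Bmp7 had 16 of 41 and Bmp2 11 of 83. In Bmp7 the members had means of 6.97 and 37 % and formed no run.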
